A study of Mus musculus with 8 samples.

Results

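Genes that hold the cell cycle back or drive it forward were followed in the livers of mice fed a diet low in amino acids. The group comprised 10 genes picked by symbol and not by a cut on their measured values, though earlier results of these data were known. They included the kinase inhibitors Cdkn1a and Cdkn1b, the cyclin Ccnd1 and the transcription factor Myc. The others were the p53 partners and targets Mdm2, Ccng1 and Btg2, and the stress genes Gadd45a, Gadd45b and Gadd45g. All 10 were among the 11784 genes listed. Polyadenylated RNA was sequenced from the livers of 8 male C57BL/6J mice, for which no source used here names an engineered genotype. The 4 Control mice (F129, F2212, F7111 and F2110) ate an amino acid defined diet, TD.140711, and the 4 Low AA mice (H1126, H828, H817 and H1315) ate its counterpart with less amino acid and more carbohydrate, TD.140712. Diets were switched at 9 weeks of age, and livers were collected some months later, in the morning after an overnight fast. Each value is a scaled read count, and each mouse, named by its own code, was 1 replicate. The question was whether the diet moved these regulators and by how much.

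The adult liver divides little, and most hepatocytes rest outside the cell cycle. To enter it, a cell makes cyclin D, which activates CDK4 and CDK6 and releases the brake set by the retinoblastoma protein, while the inhibitors p21 (Cdkn1a) and p27 (Cdkn1b) bind cyclin and kinase complexes and hold them back. Cdkn1a, Mdm2, Ccng1, Btg2 and Gadd45a are textbook targets of the tumour suppressor p53, but Cdkn1a and Gadd45b also respond to other signals, among them glucocorticoids, FOXO factors and inflammation.

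Cdkn1a is read from 2 start sites, and their promoters are shown because the gene had the largest difference between diets of the 10. The 250 bases before each start were taken from RefSeq (GRCm38.p6), which gave a promoter for 8 of the 10 genes, with Ccnd1 and Myc not matched. In the upstream promoter, chr17:29090729-29090978 on the plus strand, capitals mark a match to the p53 consensus with 1 mismatch outside its cores, at bases -51 to -32 from the start. In the downstream one, chr17:29093519-29093768 on the plus strand and 2790 bases further on, capitals mark the GC box GGGCGG.
Cdkn1a, upstream start: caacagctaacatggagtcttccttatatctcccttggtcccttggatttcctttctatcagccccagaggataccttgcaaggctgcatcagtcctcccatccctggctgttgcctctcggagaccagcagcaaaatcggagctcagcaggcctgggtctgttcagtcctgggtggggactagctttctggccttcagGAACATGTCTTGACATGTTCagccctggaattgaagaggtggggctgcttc
Cdkn1a, downstream start: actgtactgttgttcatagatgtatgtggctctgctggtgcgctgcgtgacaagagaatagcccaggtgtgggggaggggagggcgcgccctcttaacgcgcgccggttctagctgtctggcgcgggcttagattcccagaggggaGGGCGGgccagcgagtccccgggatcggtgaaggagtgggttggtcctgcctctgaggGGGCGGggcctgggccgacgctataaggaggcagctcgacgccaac
On either strand, the p53 consensus with at most 1 such mismatch was found in 15 of 32851 promoters (0.0457%), and in 1 of the 9 promoters of these genes. The same letters with no mismatch occurred in 3 promoters (0.00913%) and in none of the 9. The search with 1 mismatch was added after the Cdkn1a sequence was seen, so its share is a description only. The GC box was in 32.7% of all promoters and in 6 of the 9. Such matches describe the letters in these windows and do not show binding.

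Btg2, Gadd45b and Gadd45g are shown because they varied most between mice beside Cdkn1a. Capitals mark the cyclic AMP response element TGACGTCA in Btg2 (chr1:134079156-134079405, minus strand), and the E-box CACGTG and then TATAAA in Gadd45b (chr10:80929841-80930090, plus strand) and Gadd45g (chr13:51846425-51846674, plus strand).
Btg2: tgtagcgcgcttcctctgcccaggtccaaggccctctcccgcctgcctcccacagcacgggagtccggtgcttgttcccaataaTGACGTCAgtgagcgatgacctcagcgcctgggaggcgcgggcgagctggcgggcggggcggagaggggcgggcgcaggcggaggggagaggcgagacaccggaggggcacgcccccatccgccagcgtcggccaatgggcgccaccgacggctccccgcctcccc
Gadd45b: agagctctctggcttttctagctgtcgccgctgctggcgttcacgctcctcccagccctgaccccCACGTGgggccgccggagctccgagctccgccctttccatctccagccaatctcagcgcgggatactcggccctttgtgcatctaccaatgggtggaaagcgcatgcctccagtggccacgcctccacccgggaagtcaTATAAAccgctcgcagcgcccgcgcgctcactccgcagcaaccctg
Gadd45g: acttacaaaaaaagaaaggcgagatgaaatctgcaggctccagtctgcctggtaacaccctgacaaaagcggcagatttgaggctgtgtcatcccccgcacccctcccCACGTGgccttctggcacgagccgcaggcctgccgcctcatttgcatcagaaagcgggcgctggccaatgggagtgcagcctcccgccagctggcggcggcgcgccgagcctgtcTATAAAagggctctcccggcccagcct
TGACGTCA was in 1.55% of all promoters and in 1 of the 9. CACGTG was in 6.02% and TATAAA in 12.4%, and each was found in 2 of the 9, those of Gadd45b and Gadd45g.

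The values of a mouse summed to between 27876664 and 30799385 scaled reads, with a median gene at 433.0 to 449.0. The liver markers Alb, Apoa1, Ttr, Serpina1a and Tat were present in every mouse, at a summed 2111889 to 2335855 on Low AA and 1919591 to 2206380 on Control. Control mouse F2212 stood apart, with 36587 scaled reads of the pancreas gene Cela1, against 130 to 288 in the other mice. Cela1 was the one of 14 acinar markers in the table. F2212 also had the highest sum of acute-phase genes, at 566445, against 320742 to 386263 on Low AA and a lowest Control sum of 333123. Its part in the results was not tested, so values without F2212 are given where it counts.

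Diet differences were tested with limma on log2(value + 1), with Benjamini-Hochberg adjustment over all 11784 genes, and a positive log2 fold change means higher on Low AA. At an adjusted p under 0.05, none of the 10 regulators passed, where 47 of all genes did (0.399%). At an unadjusted p under 0.05, 2 of the 10 passed, Cdkn1a higher and Gadd45a lower on Low AA, where 11.8% of all genes passed. One of the 10, Cdkn1a, had no overlap between the values of the diets, where 6.81% of all genes had none. Counts of 2 and 1 among 10 genes are near those shares. The median log2 fold change of the 10 was 0.0028, against 0.0023 for all genes, while the median size of the change without its sign was 0.397 against 0.135. The 10 also varied more between mice of the same diet, with a median SD of 0.507 against 0.216 on the log2 scale. The part of that spread in the size of the change was not tested.

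**Figure D1:**
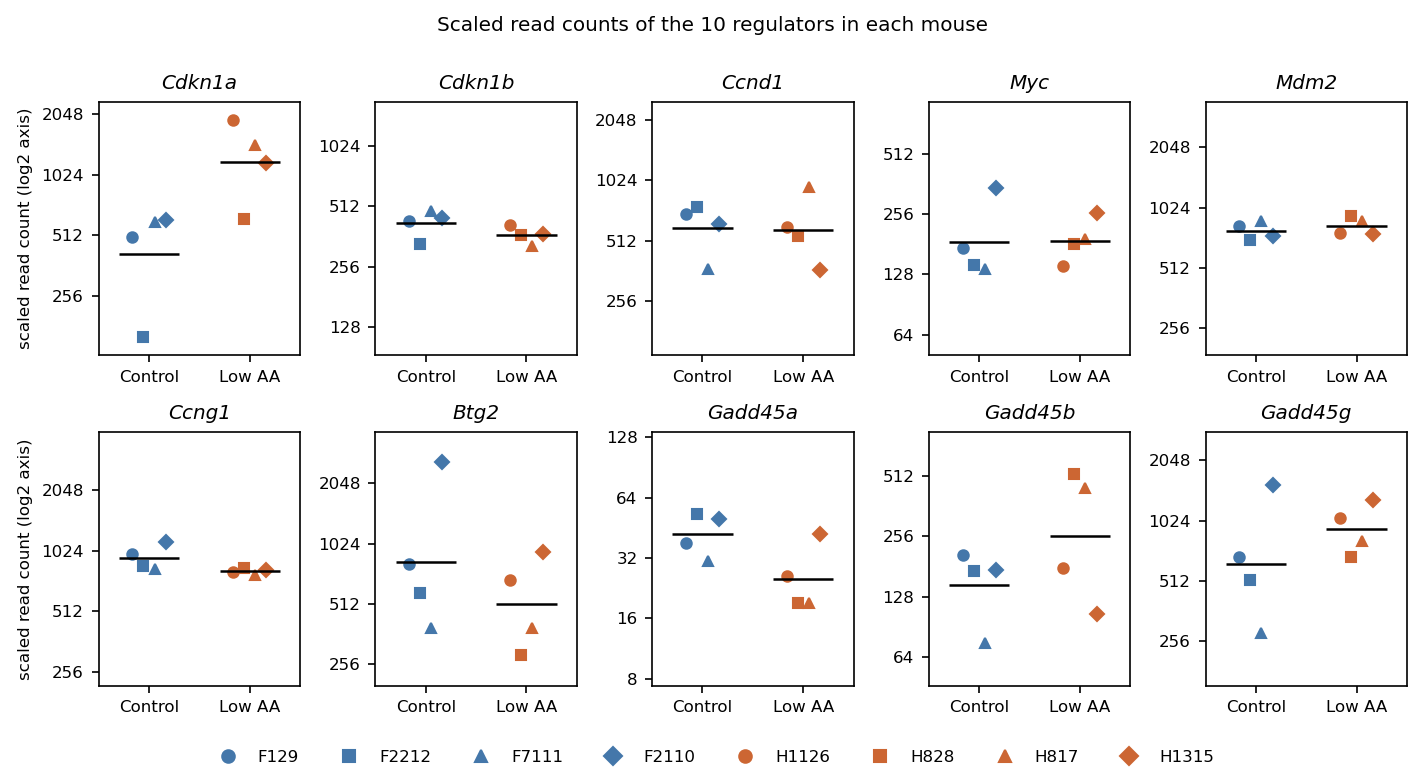
Scaled read counts (log2 axis) of the 10 regulators, with 1 panel per gene, Control mice in blue, Low AA mice in orange, 1 symbol per mouse and a line at the mean of the log2 values. The Cdkn1a panel alone has every Low AA mouse (lowest 619) above every Control mouse (highest 612), and Control mouse F2110 stands at the top of the Btg2, Gadd45g, Myc and Ccng1 panels.

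Cdkn1a (17:29090976-29100727, plus strand, GENCODE M21 on GRCm38), which encodes the kinase inhibitor p21, had scaled read counts of 1926, 619, 1438 and 1177 in Low AA mice H1126, H828, H817 and H1315. It had 501, 159, 599 and 612 in Control mice F129, F2212, F7111 and F2110, the order of mice used throughout. Every Low AA mouse was above every Control mouse, but H828, at 619, was only just above F2110, at 612. The means were 1290 ± 544 and 468 ± 212 (SD, n = 4 each), and the fitted fold was 2.88 (95% interval 1.44 to 5.74). The log2 fold change was 1.52 (SE 0.45), with a limma adjusted p of 0.196 and an exact two-sided permutation p of 0.0286, the smallest that 70 assignments allow. By unadjusted p the gene ranked 394 of 11784. In bulk liver RNA, more cells that express a gene and more RNA per cell cannot be told apart.

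The lowest of all Cdkn1a values, 159, belonged to F2212, the mouse with the highest Cela1 value and acute-phase sum. Without that mouse the log2 fold change of Cdkn1a was 1.07, with a limma adjusted p of 0.180. Leaving out H828, the lowest Low AA mouse, gave 1.84. Leaving out a mouse cannot create an overlap where there was none, so the lack of overlap in Cdkn1a was not tested this way. Without F2212 the other 9 regulators ran from -0.86 for Btg2 to 0.88 for Gadd45b and none was called, while Ccnd1 (0.09) and Myc (-0.09) took the opposite sign to that with all mice.

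Cdkn1b (6:134920401-134925513, plus strand) encodes p27, the sister inhibitor that accumulates in resting cells. Its scaled read counts were 415, 367, 324 and 374 on Low AA and 434, 334, 488 and 449 on Control. The ranges overlapped through F2212, which at 334 was the lowest Control mouse. The means were 370 ± 37.3 and 426 ± 65.6 (SD, n = 4 each), for a log2 fold change of -0.20 (95% interval -0.50 to 0.11, limma adjusted p = 0.652). Without F2212 every Low AA value lay below every Control value, and the log2 difference was -0.31 (limma adjusted p = 0.326). Lack of overlap is easier to reach with a mouse fewer, and its share over all genes was not taken there. The interval on Cdkn1b reaches to both sides of no change.

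Ccnd1 (7:144929931-144939925, minus strand), the cyclin D1 that starts the passage through G1, had values of 602, 541, 947 and 367 on Low AA and of 697, 753, 371 and 623 on Control. The highest and the lowest mouse, H817 and H1315, were both on Low AA, and the diets overlapped almost whole. The means were 614 ± 243 and 611 ± 169 (SD, n = 4 each). Fitted on the log2 scale the change was -0.02 (SE 0.29, limma adjusted p = 0.987), and its interval, a fold of 0.630 to 1.53, allows a change of either sign. The other D cyclins gave 0.41 for Ccnd2 (limma adjusted p = 0.424) and -0.21 for Ccnd3 (0.619).

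Myc (15:61985391-61990374, plus strand) encodes the growth-promoting factor known to repress Cdkn1a. It had values of 141, 182, 193 and 258 on Low AA and of 174, 143, 137 and 344 on Control. Both ends of the range were Control mice, F7111 and F2110. The log2 fold change was 0.03 (95% interval -0.61 to 0.67, limma adjusted p = 0.985), and it was 0.33 without F2110. Its partner Max, at 0.11, and Mxi1, of the same MYC and MAX network, at -0.02, also did not pass.

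Mdm2 (10:117688875-117710758, minus strand) encodes the ligase that marks p53 for destruction and is itself a p53 target. Its values of 765, 924, 882 and 760 on Low AA and of 833, 702, 876 and 741 on Control lay within a narrow band. The diets overlapped, with means of 833 ± 82.9 and 788 ± 80.4 (SD, n = 4 each). Its log2 fold change was 0.08 (SE 0.11, limma adjusted p = 0.843), and its interval, a fold of 0.889 to 1.26, ends below the lower bound for Cdkn1a, 1.44.

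Ccng1 (11:40748552-40755311, minus strand), cyclin G1, another p53 target, had values of 807, 844, 776 and 819 on Low AA and of 989, 860, 833 and 1127 on Control. The overlap came from 1 pair of mice, with H828 on Low AA at 844 above F7111 on Control at 833. The means were 812 ± 28.2 and 952 ± 135 (SD, n = 4 each). For Ccng1 the log2 fold change was -0.22 (SE 0.11, limma adjusted p = 0.496), and the exact two-sided permutation p was 0.0571. Its relative Ccng2, a FOXO target, gave 0.44 (limma adjusted p = 0.457), so the fitted signs of the pair differed, though neither passed the test.

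Btg2 (1:134075170-134079120, minus strand) encodes an antiproliferative protein that brings the CCR4-NOT deadenylase to mRNAs and is itself an early response gene. The Low AA values were 673, 284, 391 and 934, and the Control values were 809, 579, 388 and 2609. A single Control mouse, F2110, stood at 2609, and the other 7 mice overlapped between 284 and 934. Btg2 gave a log2 fold change of -0.69 (95% interval -1.90 to 0.52, limma adjusted p = 0.700) with all mice and -0.14 without F2110. Among its relatives, Btg1 gave 0.39 (limma adjusted p = 0.526) and Tob1 0.10, with Tob1 at 6220 in F2110 and at 2371 to 4352 in the other mice.

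The GADD45 proteins bind MAP3K4, PCNA and p21 and link stress to growth arrest, and the fitted changes of the 3 genes differed in sign. Gadd45a (6:67035096-67037457, minus strand) had the lowest values of the group, 26, 19, 19 and 42 on Low AA and 38, 53, 31 and 50 on Control. Of the Low AA mice, H1315 alone, at 42, lay within the Control range. The means were 26.5 ± 10.8 and 43.0 ± 10.3 (SD, n = 4 each), for a fold of 0.606 (95% interval 0.384 to 0.957). The log2 fold change of -0.72 (SE 0.30) had a limma adjusted p of 0.376 and an exact two-sided permutation p of 0.0857. At so few scaled reads, counting error alone is a larger share of this value than for the other 9 genes.

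Gadd45b (10:80930073-80932204, plus strand), the family member induced in liver by inflammatory and proliferative signals, had values of 178, 524, 448 and 105 on Low AA and of 207, 172, 75 and 175 on Control. Low AA mice H828 and H817 were above all others, while H1126 and H1315 lay within the Control range. For Gadd45b the log2 fold change was 0.80 (95% interval -0.30 to 1.91, limma adjusted p = 0.592). Gadd45g (13:51846678-51848468, plus strand), a cytokine-responsive member, had values of 1056, 673, 808 and 1297 on Low AA and of 671, 517, 282 and 1547 on Control. All 4 Low AA mice lay above 3 of the Control mice and below F2110. Gadd45g gave 0.57 on the log2 scale (95% interval -0.38 to 1.52, limma adjusted p = 0.678), and 1.01 without F2110 (0.252), when the diets did not overlap. The share of all genes without overlap was not taken without F2110.

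**Figure D2:**
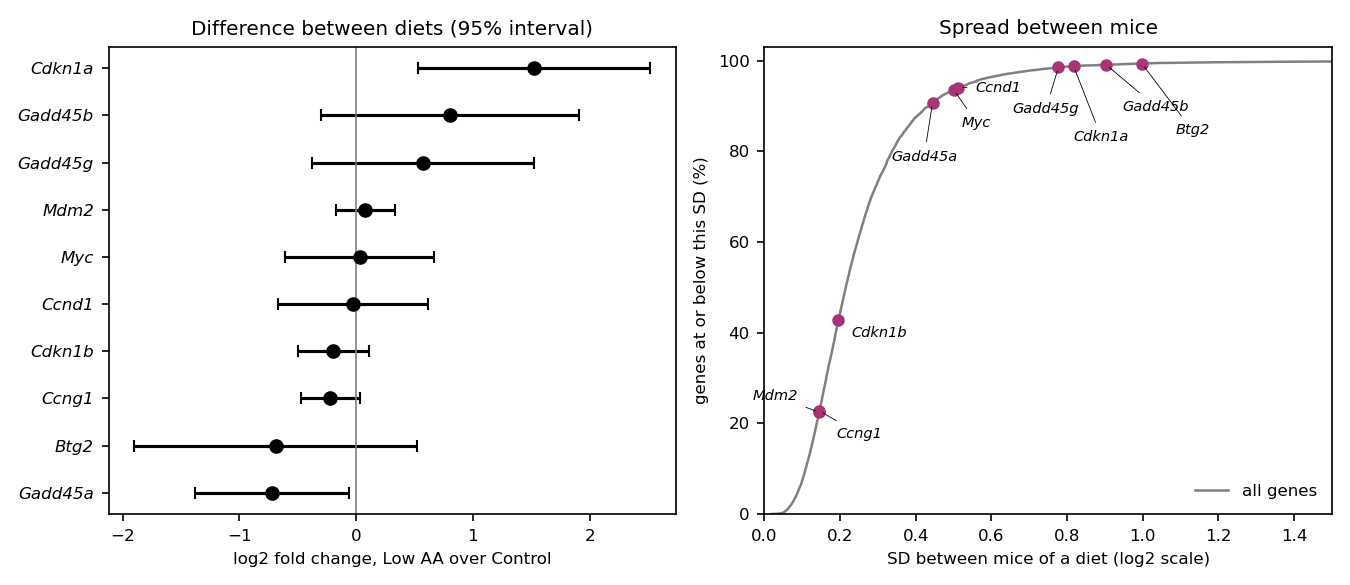
Left, log2 fold change of each regulator (Low AA over Control, point) with its 95% interval (bar). Right, the SD between mice of a diet on the log2 scale (x axis) against the percentage of all 11784 genes at or below it (line), with the 10 regulators as points. Only the intervals of Cdkn1a (0.53 to 2.52) and Gadd45a (-1.38 to -0.06) leave out 0 before adjustment, and 7 of the 10 genes lie above 90% of all genes in spread.

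Most of these genes varied widely between mice of the same diet. The median SD of the 10 on the log2 scale, taken around each diet's own mean, was 0.507, against 0.216 over all genes. Btg2 (0.998), Gadd45b (0.903), Cdkn1a (0.817) and Gadd45g (0.777) exceeded 99.3%, 99.1%, 98.7% and 98.5% of all genes. Ccnd1, Myc and Gadd45a, at 0.513, 0.501 and 0.445, were also above 90%. The other 3 lay below the middle, with Cdkn1b at 0.196, Ccng1 at 0.146 and Mdm2 at 0.145.

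The spread had a pattern by mouse. Control mouse F2110 was the highest of the 8 for 4 of the 10 genes, Btg2, Gadd45g, Myc and Ccng1, and its mean deviation over the 10 was 0.47 on the log2 scale. Control mouse F7111 was the lowest for 3 of them and had a mean deviation of -0.46. The 2 ends of this scale were thus both Control mice. The Low AA mice had mean deviations of -0.10 to 0.12.

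**Figure D3:**
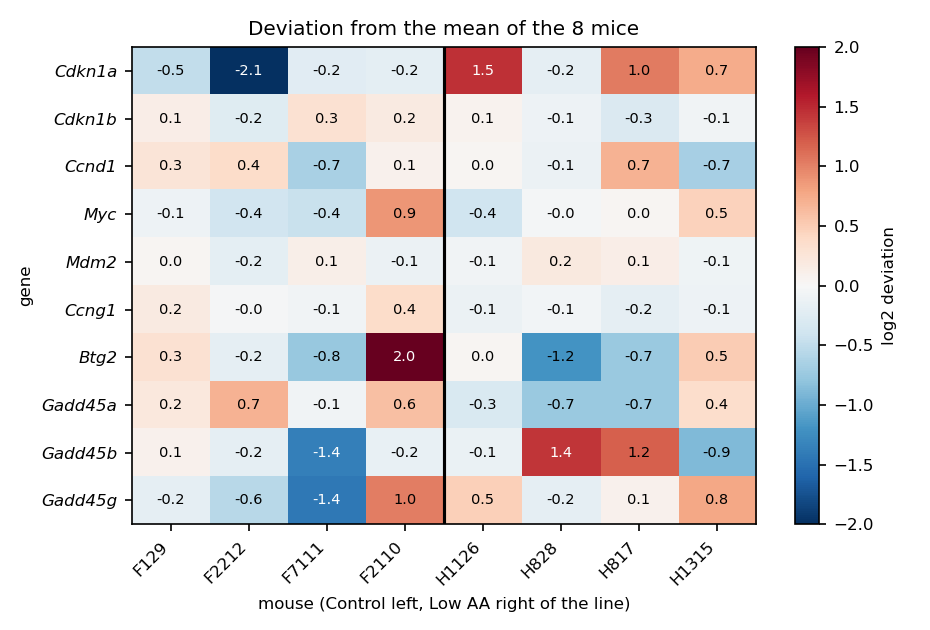
Deviation of each regulator (rows) in each mouse (columns, Control left and Low AA right of the line) from the mean of the 8 mice, in log2 units, red above and blue below, with colours ending at 2 units. Btg2, Gadd45g and Myc are high together in F2110, Gadd45b is high in H828 and H817, and Cdkn1a is lowest in F2212, at -2.1.

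Genes of the immediate early and stress response, which cells switch on within minutes of a stimulus, were high in the same mouse. Of the 25 listed in the table, 13 were highest in F2110 (52.0%), where 11.2% of all genes were highest, and their mean deviation there was 0.71. Nr4a1 stood at 2802 in F2110 and at 66 to 225 in the other mice, Jun at 2096 and at 259 to 959, Fos at 189 and at 8 to 63, and Atf3 at 173 and at 37 to 61. None of the 25 passed the test between diets, and their median log2 fold change was 0.01. The part of this response in the Btg2, Gadd45g and Myc values was not tested. Of the 28 p53 regulators and targets measured, 8 were also highest in F2110 (28.6%). Their mean deviation there was 0.19, and their part was not tested either.

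Genes of the FOXO and quiescence list, as a mean over its 16 genes, deviated lowest in F2212, at -0.64, and highest in H1126, at 0.32, the mice with the lowest and highest Cdkn1a. Single genes of the list did not follow that order, and only 2 of the 16 were highest in H1126. A low mean in F2212 was not particular to this list. That mouse was also lowest in the means of the p53 list (-0.17), the MYC and MAX network (-0.10) and the BTG, TOB and CCR4-NOT list (-0.33). Igfbp1, a fasting-induced secreted binder of insulin-like growth factors, had values of 30720, 32575, 15810 and 22357 on Low AA and of 26532, 4873, 4130 and 19707 on Control. Pdk4, which holds back glucose oxidation on fasting, had 2889, 5599, 3039 and 1102 on Low AA and 2419, 670, 545 and 1265 on Control. Both were highest in H828 and lowest in F7111, the diets overlapped through F129 and F2110, and neither passed, with log2 fold changes of 1.27 (limma adjusted p = 0.416) and 1.40 (0.324). None of the 16 FOXO genes was called, with a median of 0.14, and Foxo1 and Foxo3 themselves gave 0.20 and 0.12.

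The genes most like Cdkn1a across the 8 mice, by Pearson correlation of log2 values over all genes, were 1300001I01Rik (r = 0.973), C630043F03Rik (r = 0.973) and Chsy1 (r = 0.970), a chondroitin synthase. With each diet's mean removed the values were 0.947, 0.942 and 0.956. These are the 3 highest of 11784 over the same 8 libraries, a description only. Their range was far narrower, as Chsy1 ran from 117 to 149 on Low AA and from 91 to 117 on Control.

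The ratio of Cdkn1a to the other p53 targets was compared within each mouse. Cdkn1a over Ccng1 was 0.733 to 2.39 on Low AA and 0.185 to 0.719 on Control, and Cdkn1a over Gadd45a was 28.0 to 75.7 and 3.0 to 19.3, both with no overlap. Cdkn1a over Mdm2 was 0.670 to 2.52 and 0.226 to 0.826, and Cdkn1a over Btg2 was 1.26 to 3.68 and 0.235 to 1.54, both with overlap. All 4 ratios share Cdkn1a, which had no overlap by itself, so they are no separate support. H828 was the lowest Low AA mouse in the ratios to Mdm2 and Ccng1.

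Compared per length, as scaled reads per kilobase of exon, Gadd45g was the most abundant of the 10 on both diets, at 704 ± 516 on Control and 895 ± 258 on Low AA (SD, n = 4 each). On Control it was followed by Btg2 (400), Ccng1 (271), Mdm2 (251), Cdkn1a (172), Ccnd1 (163), Gadd45b (115), Cdkn1b (93.6), Myc (81.5) and Gadd45a (35.2). Only Myc and Gadd45a, the last neighbours, did not overlap between mice in that order. On Low AA, Cdkn1a stood in the second place in place of the fifth, at 475 ± 200 per kilobase against 172 ± 77.9 on Control (SD, n = 4 each). There the order went on with Mdm2 (265), Ccng1 (231), Gadd45b (229), Btg2 (208), Ccnd1 (164), Cdkn1b (81.3), Myc (79.1) and Gadd45a (21.7). The neighbours Mdm2 and Ccng1, Ccnd1 and Cdkn1b, and Myc and Gadd45a did not overlap. The other places in both orders rest on overlapping mice.

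The fixed partners of these regulators were tested in the same way, and of the 21, all in the table, none passed, also not at an unadjusted p under 0.05. Trp53, the p53 gene, had 427, 396, 416 and 422 on Low AA and 445, 374, 403 and 481 on Control, with overlap. Its log2 fold change was -0.03 (95% interval -0.27 to 0.21, limma adjusted p = 0.948). Mdm4, the second p53 inhibitor, gave 0.36 but with an SE of 0.35. The kinases Cdk2, Cdk4 and Cdk6 gave 0.04, 0.06 and -0.26, and the pocket proteins Rb1 and Rbl2 gave -0.19 and -0.05. Skp2, which marks p27 for destruction, gave -0.32, Map3k4, the kinase that GADD45 proteins activate, -0.17, and Gadd45gip1, named for binding GADD45, -0.22. The proliferation marker Mki67 was at 29 to 51 in every mouse, with a log2 fold change of 0.25, and Pcna gave 0.11.

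The wider lists around the regulators held 242 genes, of which 206 were in the table, and none was called in either direction, where 0.399% of all genes were. At an unadjusted p under 0.05, 14 were higher and 9 lower on Low AA (11.2% of them, against 11.8% of all genes), and 10 did not overlap between diets (4.85%, against 6.81%). Their median log2 fold change was 0.03. The genes named next were picked after their values were seen.

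Of the 28 p53 regulators and targets measured, 2 were higher and 1 lower at an unadjusted p under 0.05 (10.7%, against 11.8% of all genes), with a median of 0.02. Ddit4, an inhibitor of mTORC1, had 231, 271, 335 and 267 on Low AA and 206, 91, 198 and 201 on Control, with no overlap, and its log2 difference was 0.72 (limma adjusted p = 0.281). As for Cdkn1a, its lowest mouse was F2212. Plk2, a polo-like kinase, went the other way at -0.71 (limma adjusted p = 0.191), so the p53 targets measured did not share a sign. Of the 38 cyclins, kinases, inhibitors and pocket proteins, 4 were higher and 3 lower (18.4%, against 11.8% of all genes), with a median of -0.03. Cdkn2c, the CDK4 and CDK6 inhibitor p18, had 181, 153, 127 and 222 on Low AA and 124, 96, 79 and 109 on Control, with no overlap. Its log2 fold change was 0.73 (limma adjusted p = 0.170), the smallest adjusted p of the 206 genes and smaller than that of Cdkn1a.

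Among the 19 replication and mitosis genes measured of 35 listed, 13 had a negative fold change, with a median of -0.25. A positive fold change was seen in 31.6% of them, against 50.5% of all genes. At an unadjusted p under 0.05, 4 were lower and 1 higher (26.3%, against 11.8% of all genes). The list was not tested as a whole. The 19 include Aim1 (-0.27), matched as an older symbol of Aurkb. That symbol may stand for another gene here, and the counts and median above include it. Without Aim1 the median would lie between Rrm2 (-0.25) and Mcm3 (-0.07), nearer to no change. The lowest was Cdt1, which loads the replicative helicase, with 42, 42, 22 and 62 on Low AA and 62, 99, 57 and 74 on Control. The diets overlapped, and its log2 fold change of -0.84 had a limma adjusted p of 0.299. Mcm5, a helicase subunit, gave -0.76 and Rrm1, of ribonucleotide reductase, 0.30. The median SD between mice of a diet was 0.323 in this list, against 0.216 over all genes.

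Of the 25 nucleolar and growth targets of MYC, 23 had a positive fold change (92.0%, against 50.5% of all genes), with a median of 0.13. At an unadjusted p under 0.05, 4 were higher (Bysl, Nop58, Nop2 and Mybbp1a), 16.0% of the list against 11.8% of all genes. Low AA mouse H817 was the highest of the 8 for 12 of the 25 (48.0%), where 7.67% of all genes were highest, and its part in the count was not tested. Bysl, a factor for the small ribosomal subunit, had 532, 482, 616 and 469 on Low AA and 387, 384, 459 and 380 on Control. The diets did not overlap, but its log2 fold change of 0.38 had a limma adjusted p of 0.235. Myc itself gave 0.03. The 17 genes of the MYC and MAX network had a median of 0.03 and the 17 of p27, p21 and cyclin D1 turnover one of -0.02, with none past an unadjusted p of 0.05. The 11 BTG, TOB and CCR4-NOT genes had a median of 0.12, also with none. Of the 13 GADD45 partners, with a median of -0.06, Map2k3, a kinase above p38, was lower at -0.45 (limma adjusted p = 0.191).

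**Figure D4:**
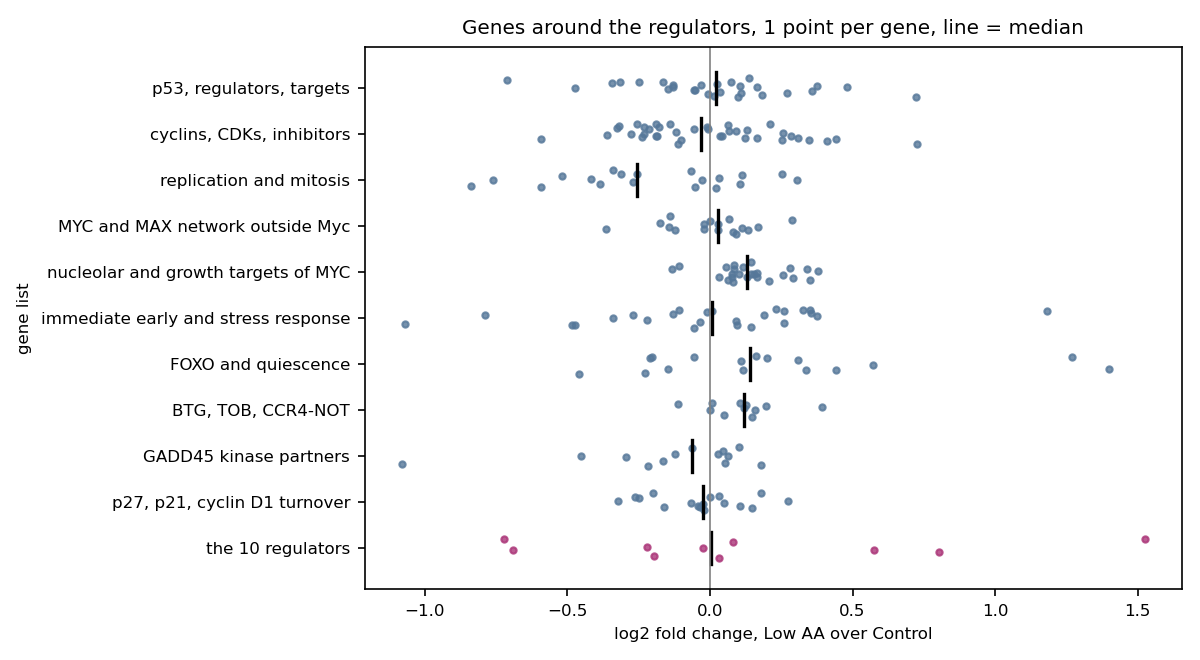
Log2 fold change (Low AA over Control) of each gene in the 10 surrounding lists and of the 10 regulators, 1 point per gene with a line at the median. Medians lie between -0.25 for replication and mitosis, with Aim1 counted in, and 0.14 for FOXO and quiescence. Cdkn1a, at 1.52, is the highest point drawn.

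Other cell types that could carry these genes were followed by fixed markers, and no marker was called. The 9 Kupffer cell and macrophage markers summed to 9089 to 12722 on Low AA and 8359 to 13005 on Control, the 8 endothelial markers to 8493 to 9107 and 7011 to 9784, and the 9 stellate cell markers to 11268 to 14193 and 11363 to 14265. Of the cholangiocyte markers 5 of 7 were in the table, at 857 to 1335 and 1167 to 2376, and of the lymphocyte markers 4 of 10, at 408 to 541 and 306 to 623. Neutrophil S100a9, 1 of 7 listed, was at 20 to 51 and 19 to 130, and the 6 of 9 erythroid markers summed to 10093 to 14931 and 7768 to 30071. Each of these summed ranges overlapped between diets. Of the 58 markers in the table, acute-phase genes included, 5 had no overlap, where 6.81% of all genes had none, a count near that share. All 5 were lower on Low AA (Col1a1, Tspan8, Alas2, Saa1 and Orm1, named after their values were seen). The macrophage, lymphocyte, neutrophil and erythroid sums were highest in F2212. The part of cell composition in the values of the regulators was not tested.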

How the data were processed

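Liver RNA of 4 Low AA and 4 Control mice was measured with stranded libraries of polyadenylated RNA. The signal deposited per gene and mouse was taken to be a read count that the authors had scaled and rounded. This was inferred from low whole numbers that were rarer or more frequent than their neighbours. Rarer ones were found in F129, F2212, H817 and H1315, and only more frequent ones in F7111, F2110, H1126 and H828. No source used here gives the scaling or the gene annotation. Per the submitters' processing notes, bcl2fastq 1.8.2, STAR 2.5.0a, RSEM 1.2.6, edgeR 3.10.5, R 3.2.1 and the build mm10 were used. The fold change that the authors deposited beside each gene, a signed score, and their FDR, a q-value, were not used. Because the counts were taken as scaled, no counting interval is given, and no count model was run.

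The log2(value + 1) of all 11784 genes was fitted in R 4.3.3 by limma 3.58.1 with a trend of variance on mean, and a call needed an adjusted p under 0.05. Single genes were also compared by an exact two-sided permutation test over 70 assignments. No mouse code occurs on both diets, and the samples were left unpaired. The script was tested on simulated data.

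The 10 regulators and all gene lists were chosen with earlier results of these data known. Named genes were the 10 regulators, 21 fixed partners, called genes of the lists, and the 3 genes most correlated with the regulator of smallest p. List genes outside this rule, among them Nr4a1, Jun, Fos, Atf3, Igfbp1, Pdk4, Ddit4, Plk2, Cdkn2c, Cdt1, Mcm5, Rrm1, the MYC targets and Map2k3, were named after their values were seen. The search for the p53 consensus with 1 mismatch was added after the sequence was seen. Older symbols served for 4 list genes and 2 markers. Among these matches, Aim1 for Aurkb may be another gene. Positions and exon lengths are from GENCODE M21 on GRCm38. Cdkn1a, Gadd45a and Ccnd1 each overlap a gene on the opposite strand that is not in the table, and no source used here says whether counting used strand. Figures were drawn with matplotlib 3.10.9. Alternatives were pseudocounts of 0.1 and 5, the 8000 genes of highest mean, scaling to equal totals or by the median of ratios, 3 other spread models, an adjusted p under 0.1, and leaving out each mouse.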

Additional observations from a re-analysis of the deposited data

Results flagged for a closer look

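Control mouse F2212 lay far below the other Control mice for Cdkn1a, at 159 scaled reads against 501 to 612, with a gap to its nearest neighbour of 0.851 of the Control range on the log2(value + 1) scale, past Dixon's 95% critical value for 4 mice. On the scaled reads themselves the gap was 0.755 of the range, short of that value. It was the only such case among the 20 groups of 4 mice examined (10 genes on each diet), and chance gives about 1 in 20. The same mouse held 36587 scaled reads of the pancreas gene Cela1. The part of either in the difference between diets was not tested, and without F2212 the log2 fold change of Cdkn1a was 1.07 in place of 1.52.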

How the results depend on the processing

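None of the 10 regulators was called with limma under any of the 17 alternatives, and at an unadjusted p under 0.05 the count was 2 with all mice. Calls over all genes numbered 47 and changed to 19 among the 8000 genes of highest mean, 30 without the mean-variance trend and 132 at an adjusted p under 0.1, and ran from 16 to 77 when 1 mouse was left out. The share of all genes without overlap was not taken with a mouse left out, where it can only be 6.81% or more. Leaving out 1 mouse gave 1 to 2 regulators without overlap. Cdkn1a was always among them, since leaving out a mouse cannot create an overlap. The second was Cdkn1b (without F2212), Ccng1 (without F7111 or H828), Gadd45g (without F2110) or Gadd45a (without H1315). The median log2 fold change of the 10 regulators was then -0.12 to 0.04.

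The log2 fold change of Cdkn1a was 1.51 to 1.53 under other settings and 1.07 to 1.84 without 1 mouse, with a limma adjusted p of 0.180 to 0.482. Leaving out 1 mouse moved Ccnd1 between -0.26 and 0.19 and Myc between -0.12 and 0.33, so the sign of neither is settled. Btg2 ran from -1.06 (without F7111) to -0.14 (without F2110), Gadd45g from 0.19 (without F7111) to 1.01 (without F2110), and Gadd45b from 0.46 (without H828) to 1.23. Gadd45a stayed between -0.96 and -0.59. Gadd45a and Myc fell outside the 8000 genes and have no value there. Rescaling left the median of all genes within 0.0063 of 0. With 4 mice a diet, the intervals leave room for changes of over 1.5-fold in Btg2, Gadd45a, Gadd45b, Gadd45g, Ccnd1 and Myc.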
